A study of Mus musculus with 3 samples.

Results

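The cytosolic ribosomal protein genes were followed in lineage-depleted mouse bone marrow by droplet single-cell RNA sequencing. The family was taken by gene symbol, as every Rpl or Rps symbol followed by a number and at most 1 letter of a, x, y or l, with Rplp0, Rplp1, Rplp2 and Rpsa added and Rps27a left out. That gave 79 members of 32285 genes, 30 of the small ribosomal subunit and 49 of the large one. A further 8 ribosomal proteins that the symbols miss (among them Rps3a1, Rps27a, Fau, Rack1, Rpl22l1, Rpl36al and Rpl7l1) were kept as a separate list.

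There was 1 library for each of 3 genotypes. The Lztr1 knockout library came from Lztr1fl/fl;Mx1Cre+ marrow, the Rit1-M90I library from Rit1M90I/+;Mx1Cre+ marrow, and the control from marrow labelled Rit1M90I/+Mx1Cre-, which the sample title also calls wild type. All mice received 3 doses of 12 mg/kg pIpC, which mimics viral RNA and so turns on Mx1-Cre through interferon, at 8 weeks of age, and marrow was taken 4 weeks later. Mx1-Cre also acts outside blood cells, and since only the mutants carried Cre, Cre and the allele it acts on cannot be told apart. Live cells that bound none of 5 antibodies (against CD3, CD11b, Gr1, B220 and Ter119) were sorted. Lztr1, which encodes an adaptor for the degradation of RAS-family GTPases, was at 6.34 CPM (UMIs scaled to a common library total) in the knockout library, 15.2 CPM in the Rit1-M90I library and 17.3 CPM in the control. Rit1, which encodes one of those GTPases, was at 11.7 CPM in the knockout library, 13.5 CPM in the Rit1-M90I library and 8.64 CPM in the control.

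After filtering, 2338 knockout, 9331 Rit1-M90I and 7262 control cells remained, with medians of 9922.5, 6581 and 6856.5 UMIs per cell in that order. Barcodes shared by 2 libraries numbered 2 between knockout and control, 9 between Rit1-M90I and control, and 6 between knockout and Rit1-M90I. Cells were sorted into populations by marker genes, none of them ribosomal, and a population name below stands for cells that carry those markers. Of the populations, 12 had at least 20 cells in every library, and 18.3 to 20.6% of cells were left without a name. In every library at least 6 markers of each of these 12 populations were at least 2-fold higher inside it than in the other cells, and 1 of the 8 plasmacytoid dendritic markers was at 0 in the knockout library and in the control. The same markers set the gates, so this describes the gates and is no independent check of them. T cells remained despite the depletion, and NK and innate lymphoid cells were also present. Free RNA in the droplets was not removed.

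Ribosomal protein genes encode the protein part of the cytosolic ribosome, with each small and large subunit normally taking up 1 copy of most members. Their mRNAs are among the most abundant in dividing cells and typically open with a run of pyrimidines, the 5′ terminal oligopyrimidine (TOP) tract, through which growth signals regulate their translation together. In marrow the family is best known through Diamond-Blackfan anemia, in which loss of 1 copy of a ribosomal protein gene impairs red cell production.

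The family supplied close to the same large part of all UMIs in the 3 libraries. It was 30.9% of UMIs in the knockout library, 31.5% in the Rit1-M90I library and 31.1% in the control. Small-subunit genes took 13.5, 13.8 and 13.5% of UMIs in the knockout, Rit1-M90I and control libraries, and large-subunit genes 17.4, 17.7 and 17.6%. Of the 79 members, 76 reached 20 CPM in every library, with a median of 3733 CPM in the knockout library, 3758 CPM in the Rit1-M90I library and 3930 CPM in the control. The most abundant was Rps29, a small zinc-binding protein of the small subunit, at 11840 CPM in the knockout library, 12804 CPM in the Rit1-M90I library and 9184 CPM in the control. The 20 members linked to Diamond-Blackfan anemia together made up 8.28, 8.44 and 8.13% of UMIs in the same order. These are 3′ tag counts, 1 UMI for each captured transcript and not divided by length. Many members have near-identical processed pseudogenes, so counts of single members are uncertain between copies.

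The share of UMIs varied more between cell populations than between genotypes. In the neutrophil progenitor gate it was 32.1% in the knockout library, 33.3% in the Rit1-M90I library and 33.7% in the control. In the erythroid progenitor gate the shares were 33.0, 32.9 and 32.3% in the knockout, Rit1-M90I and control libraries, and in the stem and multipotent gate 31.1, 33.0 and 32.6%. The lowest 3 places of the 12 were held by the same gates in every library. Plasmacytoid dendritic cells were at 23.7, 26.7 and 24.9%, basophils and mast cells at 23.5, 24.5 and 24.2%, and plasma cells at 11.5, 10.2 and 9.99%, again for knockout, Rit1-M90I and control. In between lay lymphoid progenitors (31.2, 33.2 and 31.7%), T cells (31.9, 32.7 and 30.5%) and megakaryocytes (29.4, 31.6 and 30.8%). Below those were monocyte lineage cells (28.9, 31.0 and 28.9%), NK and innate lymphoid cells (28.5, 29.1 and 28.4%) and B lineage cells (24.7, 30.3 and 25.5%), in the same order of libraries. Exact Clopper-Pearson 95% intervals of these shares were at most 0.587 percentage points wide and cover counting error only. The order of the upper gates differed between libraries. In plasma cells 57.0, 60.6 and 61.4% of UMIs in the knockout, Rit1-M90I and control libraries came from immunoglobulin genes, and without those UMIs the family share was 26.8, 25.9 and 25.8%.

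**Figure D1:**
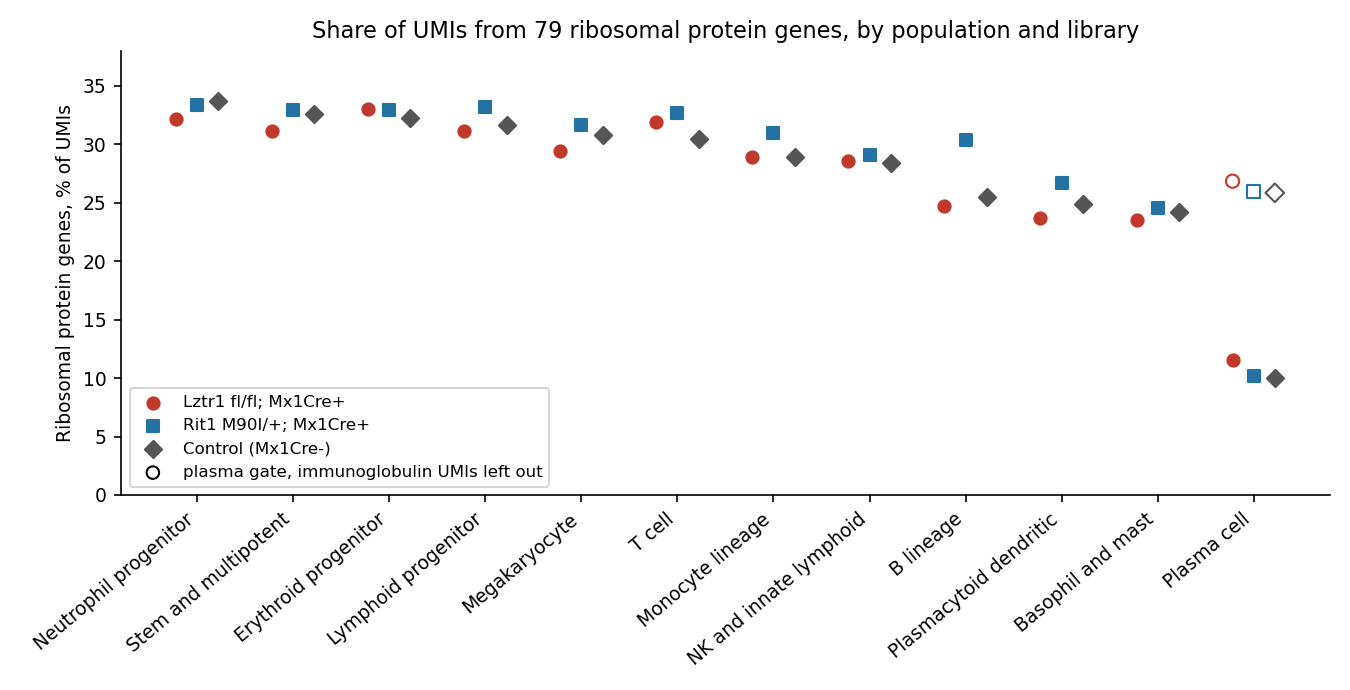
Share of UMIs from the 79 ribosomal protein genes, in percent, for each of 12 marker-gated populations, with 1 point for each library (Lztr1 knockout, Rit1-M90I, control). The 3 points of a gate lie close together in most gates, plasma cells stand lowest at 9.99 to 11.5%, and the B lineage gate shows the widest gap, with Rit1-M90I at 30.3% against 25.5% in the control.

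Across single cells the share ran with other properties of the cells in some gates. In the erythroid gate its Spearman correlation with the summed level of S-phase and mitosis genes was −0.59 in 479 knockout cells, −0.57 in 1036 Rit1-M90I cells and −0.64 in 1074 control cells. In the monocyte gate the correlation with the cell's UMI count was 0.54, 0.48 and 0.62 in the knockout, Rit1-M90I and control libraries. Plasmacytoid dendritic cells had 0.54, 0.42 and 0.59, and lymphoid progenitors and basophils and mast cells were also positive in each library. In the erythroid gate it was −0.35, −0.31 and −0.50. Cells with a larger share were thus shallower in the erythroid gate and deeper in the monocyte gate. In neutrophil progenitors the sign of that correlation differed between libraries, at −0.20 in the knockout library, 0.32 in the Rit1-M90I library and −0.17 in the control. In plasmacytoid dendritic cells the correlation with S-phase and mitosis genes was weak, at −0.04, −0.07 and −0.09 in the same order. That correlation was negative in every gate with at least 50 cells in each library, at −0.34, −0.47 and −0.47 in neutrophil progenitors. These are descriptions over cells of the same library, and share and UMI count come from the same counts.

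To compare members between populations within libraries, counts were summed per gate and library for the 6 gates with at least 50 cells in every library. Each gate was tested against the mean of the other 5, with library as a block (edgeR's quasi-likelihood test, adjusted over 11897 genes, of which 77 were members). In neutrophil progenitors 74 members were higher and 0 lower, where 34.5% of all genes tested were higher and 30.2% lower. Their median log2 fold change was 0.45. Erythroid progenitors had 69 members higher and 2 lower, with a median of 0.37, where 41.5% of all genes tested were higher and 37.5% lower. In plasmacytoid dendritic cells 0 members were higher and 75 lower with a median of −0.48, against 17.3 and 16.8% of all genes. Basophils and mast cells had 5 members higher and 67 lower, with a median of −0.35, against 35.7 and 34% of all genes. DESeq2 gave the same pair of counts, 74 and 0, in neutrophil progenitors, and 0 and 75 in plasmacytoid dendritic cells, and at an unadjusted edgeR p under 0.05 the counts of 0 remained 0. The fits compare gates within 3 libraries that differ in genotype, with the level of each library taken out by the block. The spread behind each p is therefore how far differences between gates vary from library to library, estimated over all gates together.

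Lymphoid progenitors and monocyte lineage cells showed no common movement of the family. Lymphoid progenitors had 23 members higher and 9 lower, against 25.7 and 23.5% of all genes, and monocyte lineage cells 21 higher and 7 lower, against 26.1 and 22.3%. The family median was 0.02 in each of these gates. The count of higher members in lymphoid progenitors was 64 with library totals in place of TMM scaling and 13 without the control library. In the monocyte gate it was 9 without the control, 13 without the Rit1-M90I library and 33 without the knockout library. Without TMM the median over all genes was 0.14 in lymphoid progenitors, −0.21 in neutrophil progenitors and 0.18 in plasmacytoid dendritic cells, while the family medians were 0.16, 0.23 and −0.25.

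**Figure D2:**
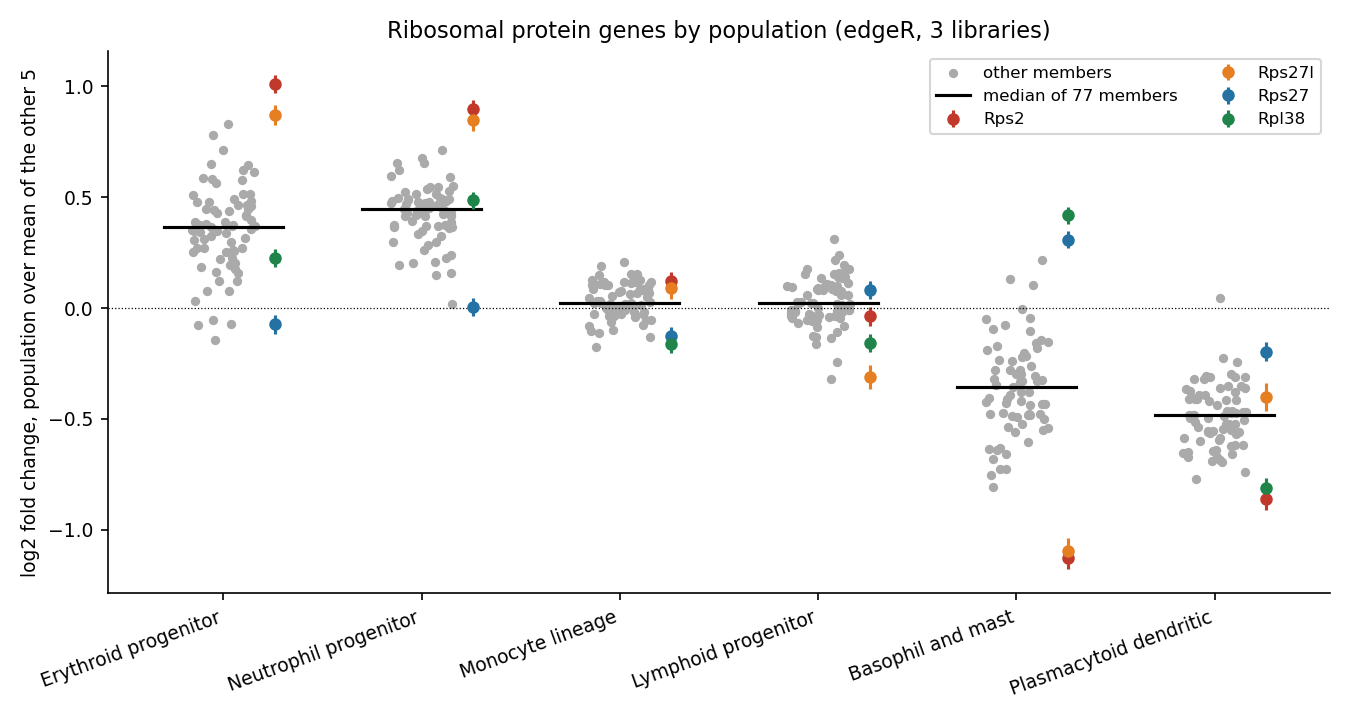
Fitted log2 fold change of each tested member except Rpl3l in 6 gated populations against the mean of the other 5 (edgeR, library as a block), with 1 point per gene. Rpl3l is not drawn, but the medians include it. Members of the neutrophil and erythroid progenitor gates lie mostly above 0, with family medians of 0.45 and 0.37, and those of plasmacytoid dendritic cells and of basophils and mast cells mostly below it, with −0.48 and −0.35.

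The parts of the ribosome moved alike in these 4 gates. The P stalk genes Rplp0, Rplp1 and Rplp2, which encode the lateral stalk that recruits elongation factors, were higher in neutrophil and erythroid progenitors (3 of 3 each) and lower in plasmacytoid dendritic cells and in basophils and mast cells (3 of 3 each). Rpl5 and Rpl11, which with 5S rRNA form the particle that can bind the p53 regulator Mdm2, did the same (2 of 2 in each gate). Small-subunit genes were higher in 29 of 30 cases in neutrophil progenitors and 26 of 30 in erythroid progenitors, and lower in 30 of 30 in plasmacytoid dendritic cells and 26 of 30 in basophils and mast cells. Of the 20 genes linked to Diamond-Blackfan anemia, 19 were higher in neutrophil progenitors and 16 in erythroid progenitors.

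The balance of subunits shifted little. UMIs of small-subunit genes were 0.780, 0.782 and 0.770 of those of large-subunit genes in the knockout, Rit1-M90I and control libraries. Erythroid progenitors had the lowest ratio of the 12 gates, 0.752 in the knockout library, 0.752 in the Rit1-M90I library and 0.740 in the control. The P stalk genes held 5.37, 5.37 and 5.58% of family UMIs there, against 4.89, 4.68 and 4.97% over all cells, in the same order. Plasmacytoid dendritic cells had ratios of 0.833, 0.823 and 0.811, among the highest.

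Other genes of protein synthesis moved in the same gates, and some lists also moved where the family did not. Of 24 ribosome assembly genes, such as Npm1, Ncl and Fbl of the nucleolus, 24 were higher in erythroid progenitors with a median log2 fold change of 1.36, and 23 were higher in neutrophil progenitors with a median of 0.78. In basophils and mast cells 24 of 24 were lower with a median of −1.26, and in plasmacytoid dendritic cells 21 were lower with a median of −0.79. Of 78 mitochondrial ribosomal protein genes, which serve the separate mitochondrial ribosome, 73 were higher in erythroid progenitors (median 0.83), 77 in neutrophil progenitors (median 0.58) and 4 in basophils and mast cells (median −0.74). In lymphoid progenitors 53 of these 78 were lower and 2 higher (median −0.26). In monocyte lineage cells 12 of the 24 assembly genes were lower and 2 higher (median −0.20). The family median was 0.02 in each of these 2 gates. Of 16 other TOP mRNAs, 15 were higher and 1 lower in erythroid progenitors, and 13 higher and 1 lower in neutrophil progenitors. Eef1a1, a translation elongation factor, was higher in both, by 0.26 and 0.22 on the log2 scale. Tpt1, the translationally controlled tumor protein, was the lower one in each, at −0.11 in erythroid and −0.17 in neutrophil progenitors (edgeR adjusted p 0.0064 and 0.000132). All 8 ribosomal proteins outside the symbol rule were higher in neutrophil progenitors and lower in plasmacytoid dendritic cells. Fau, whose protein is cleaved to release a small-subunit protein, went against the family elsewhere, with a log2 fold change of 0.33 in basophils and mast cells and −0.14 in erythroid progenitors (edgeR adjusted p 3.7e-11 and 0.00119).

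Cell division moved with these lists only in part. In erythroid progenitors 15 of 15 S-phase genes and 15 of 15 mitosis genes were higher, and in basophils and mast cells 14 and 12 were lower. In monocyte lineage cells 11 S-phase and 15 mitosis genes were higher while the family median was 0.02. In plasmacytoid dendritic cells, where the family median was −0.48, 9 S-phase genes were higher and 1 lower, with 1 mitosis gene higher. In neutrophil progenitors 8 of 15 S-phase genes were higher and 12 of 15 mitosis genes lower. Against the other 11 gates of the wider fit described below, with TMM, 14 S-phase and 11 mitosis genes were higher there. In that fit 14 S-phase and 15 mitosis genes were higher in plasmacytoid dendritic cells. In basophils and mast cells 12 S-phase genes were lower, but 5 of 15 mitosis genes were higher and 0 lower. Of all 10848 genes in that fit, 4366 were higher in neutrophil progenitors and 2073 in plasmacytoid dendritic cells. In basophils and mast cells 3258 were higher and 3493 lower, so the 5 mitosis genes lie near the share of all genes. The mitosis median turned with the set of gates, from −0.32 to 0.39 on the log2 scale in neutrophil progenitors. In basophils and mast cells it went from −0.46 to 0.25. Median UMI counts per cell also differed, from 2543 to 3194.5 in basophils and mast cells and from 15199 to 19247 in erythroid progenitors. The part of cell division and of depth in the family's differences was not tested.

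A few members left the family trend by at least 1.5-fold. Rps2, a small-subunit protein at the mRNA entry side, had 4623 CPM in the knockout library, 4740 CPM in the Rit1-M90I library and 4679 CPM in the control in erythroid progenitors. In basophils and mast cells it had 1473, 1434 and 1460 CPM in the same order. Its log2 fold change was 1.01 ± 0.04 (SE) in erythroid progenitors and −1.13 ± 0.05 in basophils and mast cells (edgeR adjusted p 8.0e-31 and 3.2e-29). Each was the farthest expressed member from its gate's median on that side. Rps27l fell with it in basophils and mast cells, by 1.09 ± 0.06 on the log2 scale. Rpl38, a small large-subunit protein, rose there by 0.42 ± 0.04, and Rps27 by 0.31 ± 0.04, where the family median was −0.35. These departures are those of the 6-gate fit. In the wider fit over 12 gates, with TMM, 2 members left the trend upward in basophils and mast cells and 0 downward. The 2 were Rpl38 and Rpl10, so Rps2, Rps27l and Rps27 did not leave the trend in that gate there.

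Because the whole family moved, members were also compared with the family total as library size, over all 12 gates and 10848 genes, of which 76 were members. This measures each member's part of the ribosomal protein UMIs, and a member was counted if its edgeR adjusted p was under 0.05 and it lay at least 1.5-fold from the family median. Such members were few. T cells had 1 higher and 3 lower, where the same rule took 14.6 and 20.7% of all genes tested. NK and innate lymphoid cells had 1 higher and 2 lower (16.4 and 9.22% of all genes), erythroid progenitors 2 and 1 (15.3 and 32.6%) and neutrophil progenitors 1 and 1 (8.43 and 34%). Plasma cells had 3 higher and 0 lower (19.9 and 9.26%), basophils and mast cells 2 and 0 (33.2 and 8.86%), and plasmacytoid dendritic cells 1 and 0 (28.1 and 2.99%). No member was counted in the stem and multipotent gate (16.1 and 7.15% of all genes), lymphoid progenitors (12.3 and 8.19%), monocyte lineage (14.6 and 12.4%), megakaryocytes (14 and 9.95%) or B lineage (12.8 and 3.08%), and the counts of all 12 gates were the same at an unadjusted p under 0.05.

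The departures fell on a few genes, of which 8 are described. Rpl28, a large-subunit protein, made up 0.823, 0.832 and 0.877% of family UMIs in T cells in the knockout, Rit1-M90I and control libraries, against 1.62, 1.61 and 1.79% in plasmacytoid dendritic cells. Its log2 fold change was −0.77 ± 0.06 in T cells and −0.63 ± 0.06 in NK and innate lymphoid cells (edgeR adjusted p 5.6e-23 and 1.1e-17). The 3 T cell values of Rpl28 lay below those of every other gate in all libraries except NK and innate lymphoid cells.

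Rpl31, a large-subunit protein at the exit of the peptide tunnel, was high in plasmacytoid dendritic cells, at 0.744, 0.628 and 0.688% of family UMIs in the knockout, Rit1-M90I and control libraries. It was at 0.313, 0.279 and 0.284% in T cells. The log2 fold change in plasmacytoid dendritic cells was 0.73 ± 0.06 (edgeR adjusted p 7.8e-22). Rpl10, which completes the large subunit late in its maturation, was at 0.9511, 0.9402 and 1.0001% in basophils and mast cells and at 0.955, 0.952 and 0.973% in plasma cells. In megakaryocytes it was at 0.561, 0.485 and 0.512%, so the basophil and plasma cell values were the higher ones in each library. Its log2 fold change was 0.62 ± 0.05 in both basophils and mast cells and plasma cells. Rpl41, the smallest ribosomal protein, was at 2.98, 3.15 and 2.96% in plasma cells, against 1.67, 1.45 and 1.33% in the stem and multipotent gate. Its log2 fold change in plasma cells was 0.75 ± 0.05. These values are relative to the family total: with library totals and no TMM, Rpl10, Rpl41 and Rps27l were below the other gates in plasma cells.

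**Figure D3:**
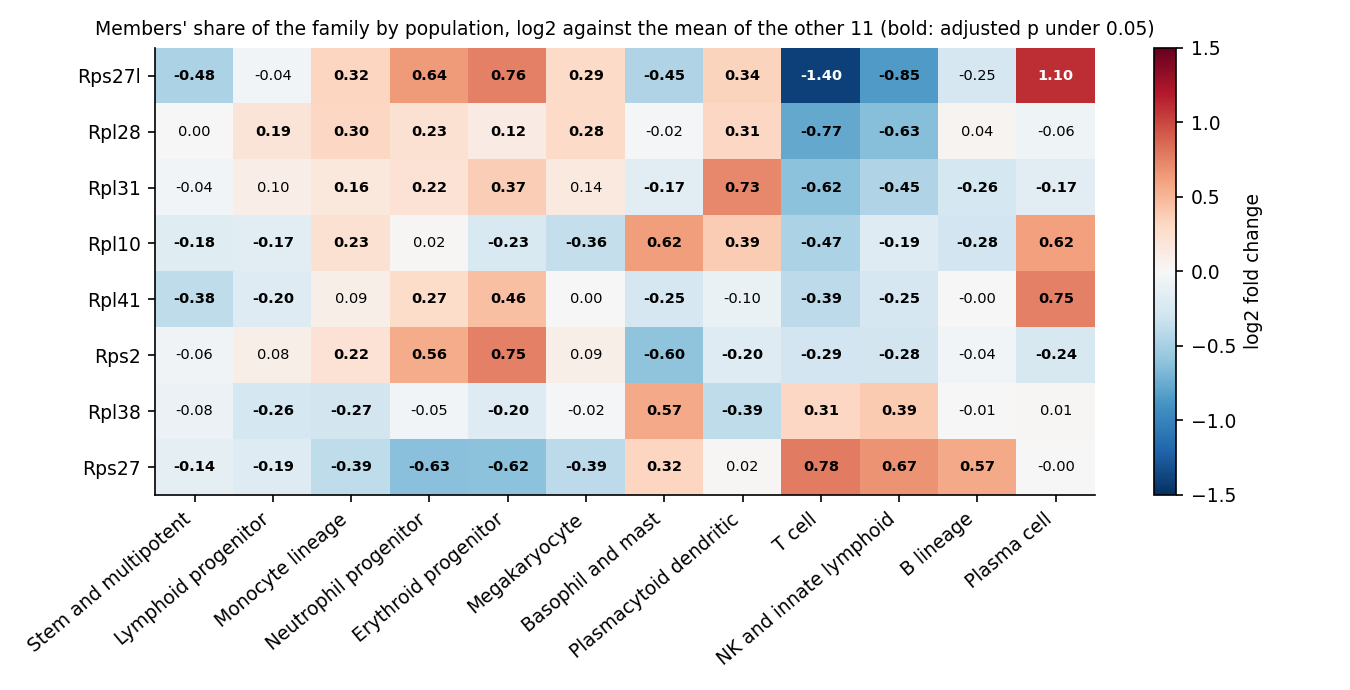
Log2 fold change (color and printed number, bold where the edgeR adjusted p is under 0.05) of 8 genes that left the family trend, in 12 gated populations against the mean of the other 11, with the family total as library size. The strongest values are Rps27l at −1.40 in T cells and 1.10 in plasma cells.

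The widest departures were those of Rps27 and Rps27l, 2 genes for closely related small-subunit proteins. Rps27l is known as a p53 target. Rps27 lies at chr3:90212522-90213651 on the minus strand and Rps27l at chr9:66946086-66949516 on the plus strand (GENCODE M21, mm10). Their coding sequences are shown because the comparison rests on telling the copies apart. Each has 255 nucleotides, they differ at 61 positions and are 76.1% identical, and capitals mark the differing bases.
Rps27: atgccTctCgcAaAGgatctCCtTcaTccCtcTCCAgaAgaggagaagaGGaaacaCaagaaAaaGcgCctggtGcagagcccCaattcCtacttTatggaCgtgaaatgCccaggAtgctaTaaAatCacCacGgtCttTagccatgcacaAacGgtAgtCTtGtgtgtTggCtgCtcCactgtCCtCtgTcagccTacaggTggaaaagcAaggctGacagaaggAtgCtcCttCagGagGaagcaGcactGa
Rps27l: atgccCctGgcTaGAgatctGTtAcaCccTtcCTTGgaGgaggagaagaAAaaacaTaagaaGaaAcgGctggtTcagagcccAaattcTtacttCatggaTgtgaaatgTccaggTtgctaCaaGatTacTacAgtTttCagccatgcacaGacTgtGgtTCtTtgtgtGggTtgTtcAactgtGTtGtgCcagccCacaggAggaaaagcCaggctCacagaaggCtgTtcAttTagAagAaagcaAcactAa

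Within the family, Rps27 and Rps27l went opposite ways in T cells, NK and innate lymphoid cells, and erythroid and neutrophil progenitors. Rps27 was 3.15, 3.28 and 2.83% of family UMIs in T cells in the knockout, Rit1-M90I and control libraries, against 1.36, 1.26 and 1.15% in neutrophil progenitors. Rps27l was 0.0397, 0.0572 and 0.0648% in T cells, against 0.250, 0.291 and 0.309% in plasma cells. In T cells Rps27 was higher by 0.78 ± 0.05 on the log2 scale and Rps27l lower, at −1.40 ± 0.10 (edgeR adjusted p 2.7e-28 and 2.8e-23). NK and innate lymphoid cells followed T cells, with 0.67 ± 0.05 for Rps27 and −0.85 ± 0.11 for Rps27l. Erythroid progenitors showed −0.62 ± 0.05 for Rps27 and 0.76 ± 0.06 for Rps27l, and neutrophil progenitors −0.63 ± 0.05 and 0.64 ± 0.06. In plasma cells Rps27l was at 1.10 ± 0.08.

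As a share of the UMIs of the pair, Rps27l made up 14.2% in the knockout library, 14.1% in the Rit1-M90I library and 18.1% in the control in erythroid progenitors. In neutrophil progenitors it was 13.2, 15.1 and 15.6%, and in plasma cells 11.2, 12.9 and 15.4%, for the same libraries. The stem and multipotent gate lay lower at 6.07, 5.19 and 6.37%, basophils and mast cells at 4.62, 4.07 and 4.84%, NK and innate lymphoid cells at 2.02, 3.12 and 2.82%, and T cells at 1.25, 1.71 and 2.24%. Erythroid and neutrophil progenitors were above the stem, basophil, NK and T cell gates in each library. A retrotransposed copy, Rps27rt, which reads of Rps27 could also match, was counted at 44.5 CPM in the knockout library, 48.0 CPM in the Rit1-M90I library and 43.8 CPM in the control.

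**Figure D4:**
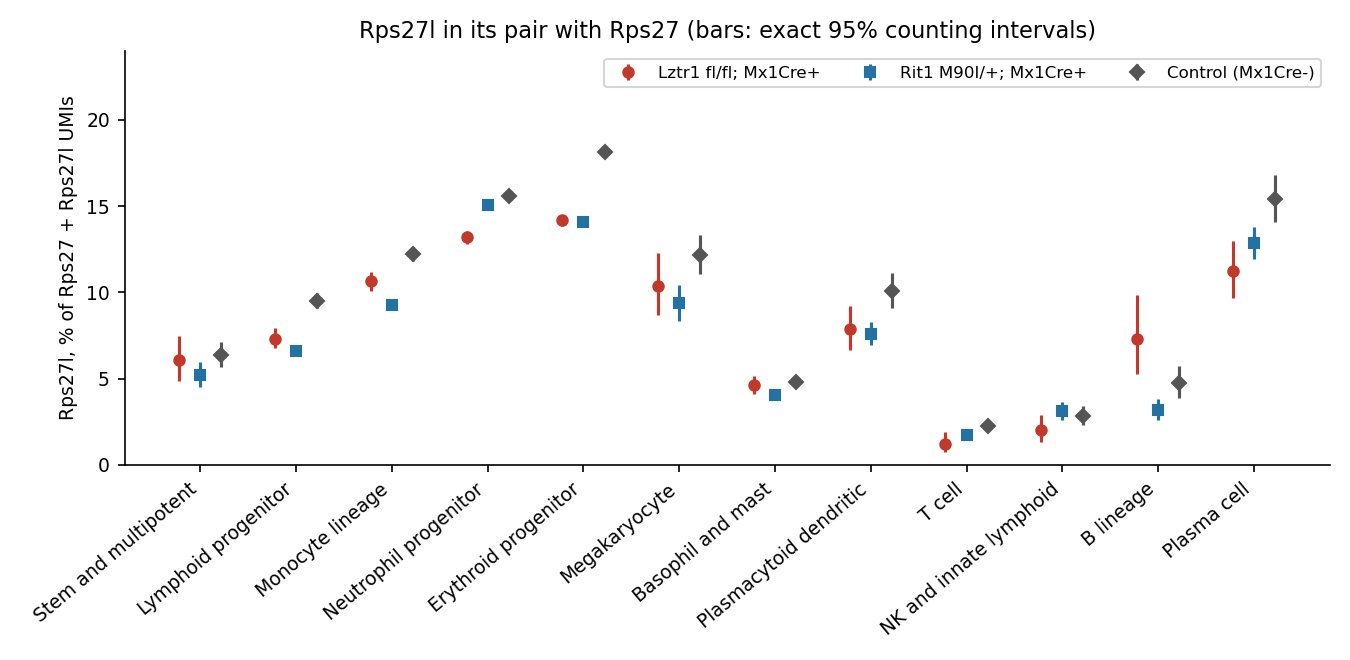
Rps27l UMIs as a percentage of Rps27 plus Rps27l UMIs in 12 gated populations, 1 point per library with its exact 95% interval (counting error only). Erythroid progenitors (14.1 to 18.1%) stand high and T cells (1.25 to 2.24%) lowest.

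Of the tissue-restricted copies, Rpl10l, known from testis, had 0 UMIs in each library, and 3 UMIs would correspond to 0.109, 0.0378 and 0.0482 CPM in the knockout, Rit1-M90I and control libraries. Its parent Rpl10 was at 2001, 1973 and 2019 CPM. Rpl39l, also known from male germ cells, had 19 UMIs (0.688 CPM) in the knockout library, 68 (0.857 CPM) in the Rit1-M90I library and 6 (0.0964 CPM) in the control, while Rpl39 was at 7437, 8097 and 6875 CPM. The Rpl39l UMIs came from 10 knockout, 38 Rit1-M90I and 5 control cells, with up to 3, 9 and 2 UMIs in 1 cell, so they are not independent counts, and no test between the libraries was possible. Rpl3l, known from heart and skeletal muscle, had 16, 36 and 34 UMIs in the knockout, Rit1-M90I and control libraries, and its parent Rpl3 was at 2773, 3014 and 2989 CPM. Of the Rpl3l UMIs, 5, 11 and 10 were in the lymphoid progenitor gate, 1, 12 and 15 in the larger neutrophil progenitor gate, 1, 1 and 0 in erythroid progenitors, and 7, 7 and 4 in cells without a name. Rpl3l had a log2 fold change of 3.24 ± 0.53 in lymphoid progenitors and of −3.31 ± 0.97 in erythroid progenitors, but it passed the filter on low counts only through gates where it was high, and the erythroid call was lost without the control library, where the value was −1.93. Rps4x, an X-linked small-subunit gene kept with the other parents, was at 4144, 4256 and 4418 CPM in the knockout, Rit1-M90I and control libraries.

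Start sequences were looked up for the members in RefSeq's promoter table (GRCm38.p6), which held 60 of them. A tract of C followed by at least 4 more C or T, read on the gene's own strand from the first listed start, opened 12 of the 60 members (20%) and 673 of 27025 genes in the table (2.49%). A start listed a few bases off its true place would miss a tract. The windows of 4 tract members whose values are singled out in the results are shown, from 5 bases before the start to 24 after it, with the tract in capitals. Rps27 is at chr3:90213624-90213653 on the minus strand, and the others are on the plus strand, Rpl28 at chr7:4792960-4792989, Rpl38 at chr11:114668575-114668604 and Rps21 at chr2:180257374-180257403.
Rps27: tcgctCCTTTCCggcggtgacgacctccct
Rpl28: tgtctCTCTTTCCgtctccggccgccatag
Rpl38: tcgttCTTTCCCCgttctcttcggttctca
Rps21: ccgccCTCCTgcccaatagtgctgcggagg

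Of these 4, Rps27 was high and Rpl28 low in T cells, and Rpl38 was high in basophils and mast cells. Rps21 stayed within 1.5-fold of the family in every gate.

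Between genotypes there was 1 library each, so no test was possible, and both mutants were set against the same control. The family share differed little: its log2 ratio to the control was −0.01 for the knockout library and 0.02 for the Rit1-M90I library. Over the 12 gates the knockout library was higher in 5 and lower in 7, with log2 ratios of −0.07 to 0.21 and a median of −0.03. The Rit1-M90I library was higher in 11 and lower in 1, with ratios of −0.02 to 0.25 and a median of 0.04.

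The widest gap was in B lineage cells, 30.3% in 117 Rit1-M90I cells against 25.5% in 126 control cells, a difference of 4.87 percentage points. Those gates also differed in other ways. Of 3 genes of the precursor B cell receptor and stage, Vpreb3 was at 894 CPM in the Rit1-M90I gate and 1813 CPM in the control gate, Vpreb1 at 439 CPM and 333 CPM, and Igll1 at 252 CPM and 280 CPM. Ms4a1, which encodes CD20 of mature B cells, was at 644 CPM in the Rit1-M90I gate and 501 CPM in the control gate. Cells had medians of 2727 UMIs in the Rit1-M90I library and 1805.5 UMIs in the control. The part of these differences in the family share was not tested.

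In the neutrophil progenitor gate the Rit1-M90I library held a group of cells with a low family share. Cells under 25% numbered 1 of 389 in the knockout library (0.257%), 520 of 2615 in the Rit1-M90I library (19.9%, exact 95% interval 18.4 to 21.5%) and 7 of 1287 in the control (0.544%). The 520 cells had a median of 1669.5 UMIs, against 13724 UMIs in the other Rit1-M90I cells of the gate. Mpo and Elane, granule enzymes of neutrophil progenitors, were at 2821 and 1859 CPM in these cells, against 5291 and 5476 CPM in the others. S100a8 was also lower in these cells, at 105 CPM against 356 CPM, whereas the mitosis gene Mki67 was higher, at 274 CPM against 158 CPM. Ltf and Camp had only 2 and 1 UMIs in these cells. Without cells under 25%, the share was 32.1% in the knockout library, 33.7% in the Rit1-M90I library and 33.8% in the control. The 25% line and these genes were chosen after the values were seen, and whether low depth gives the low share was not tested.

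For single members over all cells, 0 of 76 passed a 1.5-fold difference from the control in either mutant, on the scale of log2 of CPM plus 10. Among all genes at 20 CPM or more, 0.263% were higher and 0.411% lower in the knockout library, and 0.333% higher and 0.233% lower in the Rit1-M90I library. The family median was −0.05 in each mutant, against 0.02 for the other genes in the knockout library and −0.05 in the Rit1-M90I library. Of the 76 members, 20 were above the control and 56 below it in the knockout library, and 18 above and 58 below in the Rit1-M90I library. In the Rit1-M90I library the other genes had nearly the same median as the family, so its count is not particular to the family. The other genes of the knockout library had a median slightly above the control.

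In each mutant the 3 highest members were Rps28, Rps29 and Rpl38. Rps28, which sits at the mRNA exit site of the small subunit, was at 8041 CPM in the knockout library, 8341 CPM in the Rit1-M90I library and 6176 CPM in the control, with log2 ratios of 0.38 and 0.43. For Rps29 the ratios were 0.37 and 0.48. Rpl38, known in mice for its part in translating Hox mRNAs, was at 6660 CPM in the knockout library, 7157 CPM in the Rit1-M90I library and 5392 CPM in the control, with ratios of 0.30 and 0.41. All 3 were above the control in 12 of 12 gates in both mutants, as were Rpl39, Rpl41 and Rps21 in the knockout library. The members were picked from all cells together, of which the gates are parts, so gates are not repeats of a genotype. Across gates the knockout ratio ran from 0.29 to 0.68 for Rps28, 0.16 to 0.51 for Rps29 and 0.19 to 0.62 for Rpl38, and the Rit1-M90I ratio from 0.36 to 0.64, 0.39 to 0.65 and 0.32 to 0.67. Rpl6, a longer member of the large subunit, was at 5224 CPM in the Rit1-M90I library and 4114 CPM in the control, a ratio of 0.34, and 0.19 in the knockout library, and was also above the control in every gate.

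The lowest members lay closer to the control. In the knockout library they were Rpl30, of the large subunit, with a log2 ratio of −0.17 (3306 CPM against 3724 CPM in the control), and Rps24 and Rps13, of the small subunit, each at −0.15. In the Rit1-M90I library they were Rpl13a, known for a translation-silencing role outside the ribosome, at −0.21 (2779 CPM against 3226 CPM in the control), Rps14 at −0.18 and Rpl17 at −0.17. Over all cells no member lay 1.5-fold or more from the family median in either mutant.

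Members with short coding sequences stood highest. Of the 10 expressed members of at most 300 coding nucleotides, 9 were above the control in each mutant, with median log2 ratios of 0.15 in the knockout library and 0.23 in the Rit1-M90I library. They run from Rpl41 with 78 nucleotides, Rpl39 with 156, Rps29 with 171, Rps28 with 210 and Rpl38 with 213 to Rps21 with 252, Rps27 and Rps27l with 255, Rpl37a with 279 and Rpl37 with 294. Rps27l was the exception, with a ratio of −0.04 in each mutant. The 27 members of more than 300 and up to 450 nucleotides had medians of −0.10 and −0.08. Other genes of at most 300 nucleotides had medians of −0.01 over 186 genes in the knockout library and 0.00 over 184 genes in the Rit1-M90I library. Rpl6, with 891 nucleotides, stood high among longer members. Over 76 members the Spearman correlation of the ratio with coding length was −0.16 in the knockout library and −0.15 in the Rit1-M90I library, and with transcript length −0.31 and −0.26. Over the other genes the correlation with coding length was 0.15 in the knockout library (5911 genes) and −0.23 in the Rit1-M90I library (5839 genes), so ratios also ran with length outside the family, in opposite directions in the 2 mutants. Both comparisons share the control, and the part of coding length in the ratios was not tested.

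**Figure D5:**
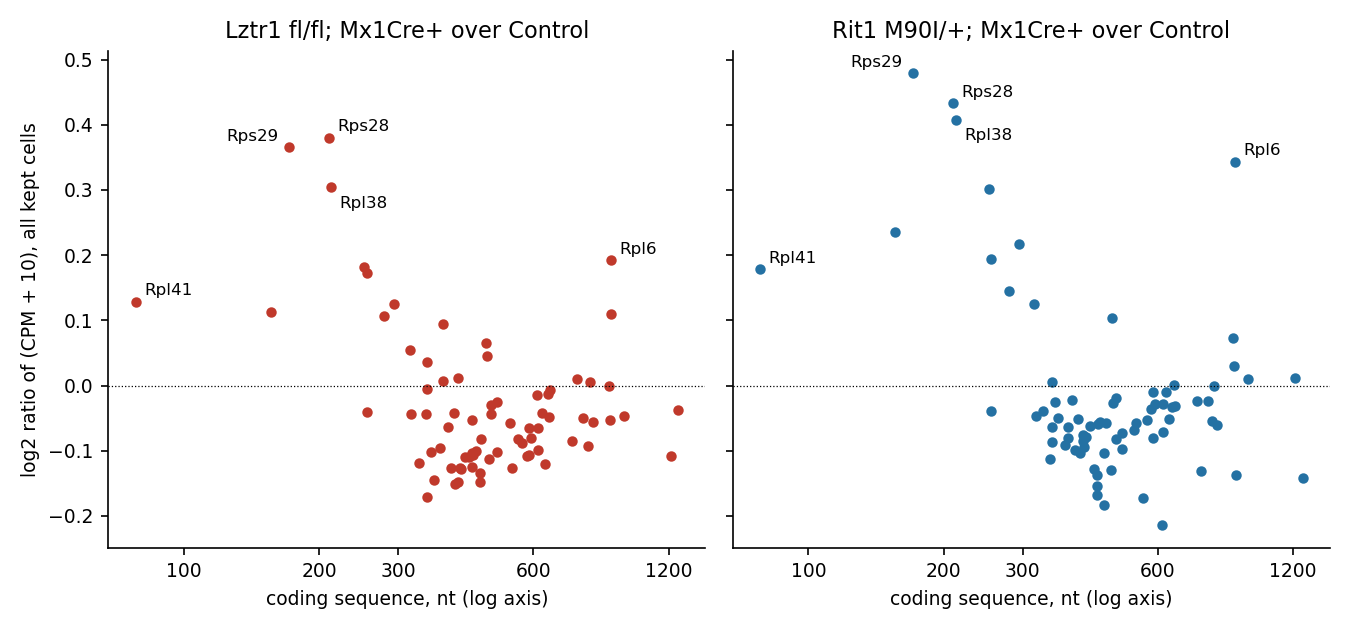
Log2 ratio of each mutant library to the control (CPM plus 10, all cells) for 76 ribosomal protein genes against coding length in nucleotides, knockout left and Rit1-M90I right. Members of at most 300 nucleotides lie mostly above 0, with medians of 0.15 and 0.23, and Rpl6 stands above 0 among the longer ones.

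In single gates members passed 1.5-fold in 3 of 24 comparisons with the control. In T cells Rps27l had a log2 ratio of −0.60 in the knockout library, at 127 CPM (exact Poisson interval 76.3 to 198 CPM) against 197 CPM in the control, where 12.7% of all genes were lower. In B lineage cells of the Rit1-M90I library Rpl38 (0.67), Rps29 (0.65), Rps28 (0.64) and Rps21 (0.62) passed, where 8.56% of all genes were higher. In plasma cells of the knockout library Rps28 (0.68) and Rpl38 (0.62) passed, where 10.8% of all genes were higher.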

How the data were processed

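The deposited files hold UMI counts per gene and cell barcode for 3 libraries, 1 for each genotype, made by the authors with Cell Ranger 6.1.1 on mm10 and handled with Seurat 4.1.0, per the submitters' processing notes. The deposited counts were used as raw counts. The annotation release: not given in the sources used here. Cells with at least 1000 UMIs, at least 500 genes and at most 10% mitochondrial UMIs were kept, and 84 knockout, 486 Rit1-M90I and 261 control barcodes were removed as doublets with Scrublet in scanpy 1.11.5. The kept cells held 27617480, 79350734 and 62250764 UMIs in that order.

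Cells were gated by lists of marker genes, with a score of at least 0.2, at least 3 markers detected and a margin of 0.05 over the next list. The scoring limits were set after the cell numbers were seen. Counts were summed per gate and library and tested with edgeR 4.0.16 (TMM, filterByExpr, library as a block, Benjamini-Hochberg adjustment over all genes tested, threshold 0.05), in R 4.3.3 with limma 3.58.1. DESeq2 1.42.0 was run as an alternative. Scripts were tested on simulated data. SE is the fold change divided by the square root of the F statistic. Genotypes were compared by the ratio of CPM plus 10 at 20 CPM or more in at least 1 library, with no test.

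The text names the 3 highest and 3 lowest members of a genotype ratio, the members at least 1.5-fold from the family median in a genotype or a gate, and the paralogs with their parents. Members named for single gates of a genotype, for B cell stage and for granules were chosen after their values were seen. The members and lists were chosen with earlier results of these data known. The fit over 12 gates and the family total as library size were added after the data were seen. Nothing says that a library holds more than 1 mouse, and libraries of different genotype serve as blocks. The 8 ribosomal proteins outside the symbol rule were kept out of the family and described as a separate list. Gates with fewer than 20 cells in a library were left out of the comparisons. Values of some single genes are not reported here.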

Additional observations from a re-analysis of the deposited data

How the results depend on the processing

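Depth limits the small gates most: the knockout library held 21 megakaryocytes, 22 B lineage cells and 34 stem and multipotent cells. The log2 ratio of the family share, −0.0103 in the knockout library, was −0.0137 with a stricter cell filter and −0.0162 with gates weighted equally. In the Rit1-M90I library it was 0.0196, and became 0.0161 with the stricter filter, 0.021 without mitochondrial and hemoglobin UMIs, 0.064 with gates weighted equally and 0.0115 as the median over cells. Members higher in lymphoid progenitors numbered 23 in the fit as reported, 64 with library totals and no TMM, 15 with no filter on low counts, 10 with no library block, and 13 to 25 with 1 library left out. In the monocyte lineage gate 21 became 3 with no library block, 9 to 33 with 1 library left out, and 39 in the 12-gate fit, which was chosen after seeing the data. The cause was not tested, except that a fit with fewer libraries has fewer samples. The family total as library size was also chosen after seeing the data, and by construction it removes the family's common change. With it, higher and lower members numbered 17 and 16 in neutrophil progenitors and 29 and 22 in erythroid progenitors. They numbered 21 and 20 in plasmacytoid dendritic cells and 22 and 34 in basophils and mast cells. Of all 11897 genes, 1718 and 6993, 3221 and 5970, 4923 and 483, and 5799 and 2538 were higher and lower in these gates, in the same order. In the other alternatives of the 6-gate fit, higher members numbered 65 to 74 in neutrophil and 61 to 70 in erythroid progenitors, and lower members 67 to 75 in plasmacytoid dendritic cells and 61 to 71 in basophils and mast cells. The smaller counts moved more: lower members in erythroid progenitors, 2 as reported, ran from 0 without the control to 7 with no TMM, and higher members in basophils and mast cells, 5 as reported, from 3 to 5. In the 12-gate fit 70 members were lower in plasmacytoid dendritic cells, and 35 with no TMM, where 1301 and 560 of 10848 genes were lower.

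Of 181 alternative values for 25 named members by gate, 176 kept direction and call. In plasma cells with library totals and no TMM, chosen after seeing the data, Rps27l was −0.41, Rpl41 −0.74 and Rpl10 −0.88, where the median of all genes was −1.47 and that of the family −1.53. Rpl3l in erythroid progenitors (−1.93 without the control) and Rps27 in neutrophil progenitors (−0.11 without the Rit1-M90I library, with TMM) lost the call. No paired analysis of genotypes was possible because the labels carry no replicate numbers and each genotype has 1 library. Gates were compared within libraries through the block.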
